A study of Mus musculus with 8 samples.

Results

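Merkel cells are epidermal cells that respond to light touch and pass the signal on to sensory nerve endings. The genes described here are 10 that mark or build this cell, namely the transcription factors Atoh1, Sox2, Isl1, Pou4f3, Gfi1 and Insm1, the mechanosensory channel gene Piezo2, the vesicle gene Rab3c, the neuronal tubulin gene Tubb3 and the secretory granule gene Chga. They were taken by name, and their probes were found through the RefSeq accession that the array gives for each probe. All 10 were on the array, with 14 probes among 55681, and they are 10 of 36799 genes and other targets. Of these targets, 23139 were bright enough to be tested, among them 9 of the 10 genes.

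RNA came from the back skin epidermis of newborn (P0) C57BL/6 mice, with 4 samples called EED cKO and 4 called control. In the former, Eed is deleted by K14-Cre, which is active in the basal cells of the epidermis and is inherited by all of their descendants, Merkel cells included, whereas nerves, dermis and immune cells keep the gene. The labels give the other mice only as control, without saying which alleles they carried, and do not say whether replicates were single pups. Each RNA was hybridized to an Agilent mouse expression array in competition with Universal Mouse Reference RNA, a commercial mix that was the same on all 8 arrays. In each genotype, replicates 1 and 3 had the epidermal RNA in Cy3, and replicates 2 and 4 had it in Cy5. Values are log2 ratios of sample over reference, so that a difference of 1 between genotypes is a 2-fold change, and p-values measure the spread between these 8 samples.

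EED is a core subunit of Polycomb repressive complex 2 (PRC2), which places the repressive mark H3K27me3 on histones, mostly at CpG-rich promoters of developmental genes. Merkel cells arise from K14-positive epidermal progenitors. ATOH1, a basic helix-loop-helix factor, is required to make them, and SOX2 and ISL1 are expressed as they mature. The finished cell combines simple epithelial keratins with neuron-like equipment, that is, a touch-gated channel, synaptic vesicle proteins and dense-core granules.

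In EED cKO epidermis, RNA of 6 of the 10 genes was higher than in control (Atoh1, Sox2, Isl1, Gfi1, Insm1 and Tubb3). The largest rise on the main scale was 2.22-fold, for Tubb3. For Sox2 only a lower bound is given, at least 1.24-fold in the sample channel alone, read without the reference. Pou4f3, Rab3c and Chga were tested and did not pass the threshold, and Piezo2 was too dim to be tested. The count is 6 of 9 tested at a limma adjusted p below 0.05, all higher, against 11.8% of all tested targets called higher and 9.93% called lower. The same 6 had all 4 EED cKO arrays above all 4 control arrays, which held for 9.68% of tested targets. The median log2 fold change over the 9 was 0.70, against 0.02 over all tested targets. Atoh1, Sox2, Isl1 and Pou4f3 entered the test only because their probes were well above background in EED cKO, so these counts and this median describe the genes that could be tested and are no measure of all 10. With the 2-fold limit of the study's methods only Tubb3 remained on this scale, where 1.1% of tested targets were called higher.

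**Figure D1:**
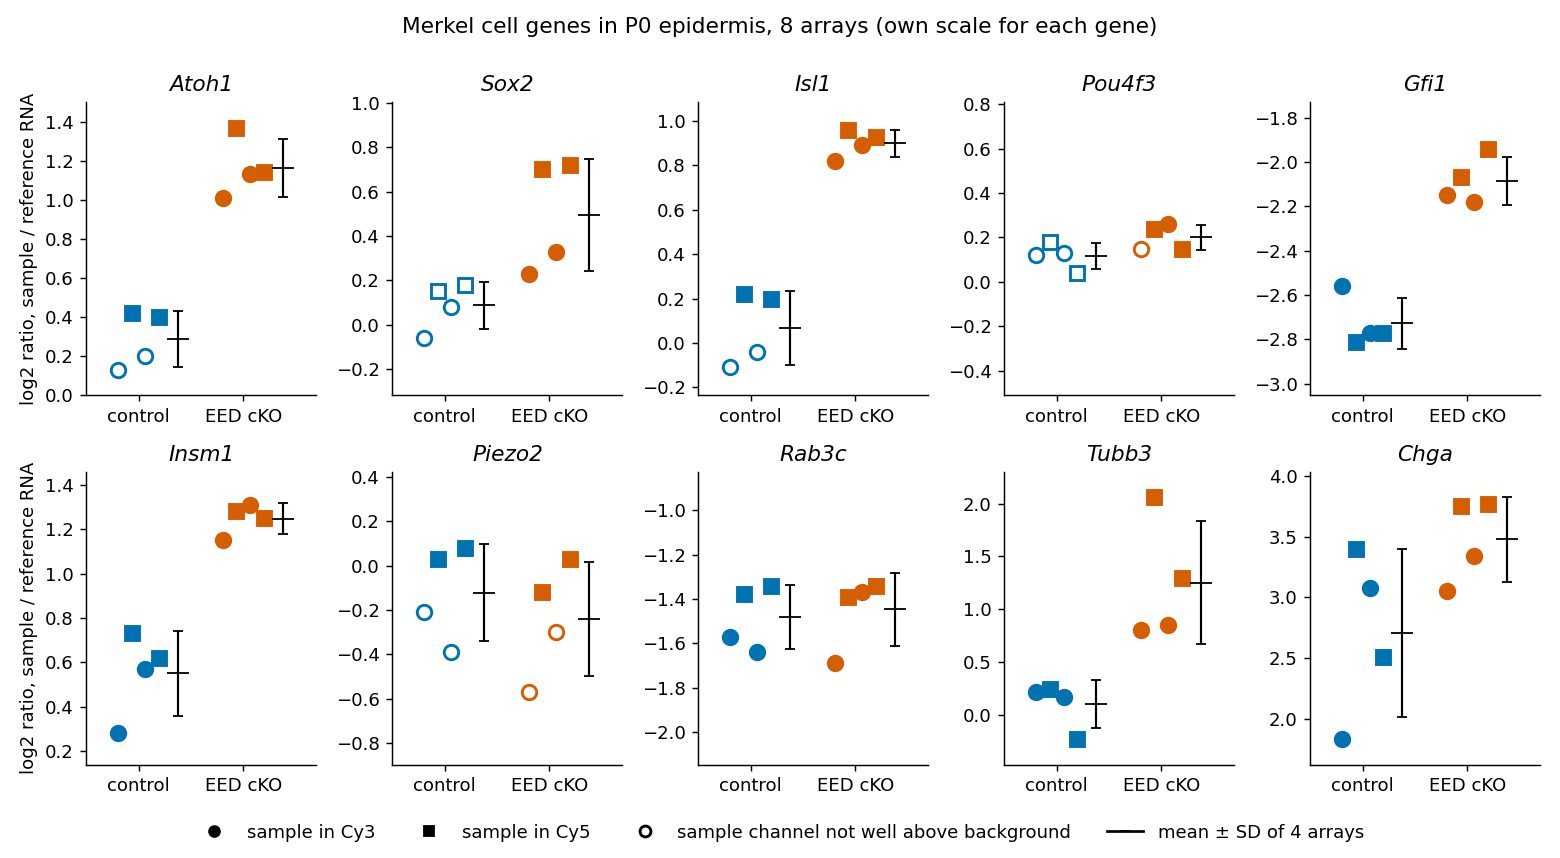
Log2 ratio of sample over reference RNA (vertical axis, own scale for each gene) on 4 control arrays (blue) and 4 EED cKO arrays (orange) for the 10 genes, by their brightest probe. Circles are arrays with the sample in Cy3, squares arrays with the sample in Cy5, open symbols arrays on which the sample channel was not well above background, and bars are the mean ± SD of 4 arrays. For Atoh1, Sox2, Isl1, Gfi1, Insm1 and Tubb3 every EED cKO array lies above every control array, and for Pou4f3, Piezo2, Rab3c and Chga the genotypes overlap.

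The targeted gene was read first. The log2 ratio of Eed averaged -1.80 ± 0.17 on the 4 EED cKO arrays and -0.35 ± 0.13 on the 4 control arrays (mean ± SD), which differ by -1.46 (SE 0.09, limma adjusted p = 2.13e-05). The sample channel was well above background on 53.3% to 65.5% of spots in EED cKO and 51.5% to 65.4% in control, and was higher on the Cy5 arrays (59.8% to 65.5%) than on the Cy3 arrays (51.5% to 54.9%). No spot was saturated. All arrays lay on 1 slide, where EED cKO filled one row and control the other, so slide row and genotype cannot be told apart. In the reference channel, where all 8 arrays hold the same RNA, 117 of the 23139 tested targets differed between the rows at a limma adjusted p below 0.05, 18 of them by 2-fold or more. Of the 9 genes 0 did so, but for Atoh1, Sox2 and Pou4f3 the reference was well above background on 0 of 8 arrays. For these, the rows were compared at background level only. At an unadjusted p below 0.05 there were 2 of the 9, Atoh1 at a log2 difference of -0.12 and Gfi1 at -0.09, among 2010 of all tested targets. Both were lower in the EED cKO row, which raises their ratio of sample over reference there. In whole epidermis, a change in the number of Merkel cells and a change of RNA per cell cannot be told apart.

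The 3 factors that define the lineage were Atoh1, Sox2 and Isl1. Their promoters are shown with that of Rab3c, whose RNA did not pass the test, because the density of CpG, the dinucleotide by which PRC2 target promoters are known, can be read from them directly. Each is the 250 bases just upstream of the annotated start in the mouse assembly GRCm38.p6 (RefSeq), 5′ to 3′ on the strand of the gene, with every CG in capitals. The Atoh1 window is chr6:64728875-64729124 on the plus strand, the Sox2 window is chr3:34649745-34649994 on the plus strand, the Isl1 window is chr13:116309689-116309938 on the minus strand, and the Rab3c window is chr13:110280207-110280456 on the minus strand.
Atoh1: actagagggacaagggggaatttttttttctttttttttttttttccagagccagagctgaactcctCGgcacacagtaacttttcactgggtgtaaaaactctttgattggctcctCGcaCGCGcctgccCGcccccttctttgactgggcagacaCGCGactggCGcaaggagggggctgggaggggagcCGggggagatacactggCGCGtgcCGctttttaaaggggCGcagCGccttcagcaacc
Sox2: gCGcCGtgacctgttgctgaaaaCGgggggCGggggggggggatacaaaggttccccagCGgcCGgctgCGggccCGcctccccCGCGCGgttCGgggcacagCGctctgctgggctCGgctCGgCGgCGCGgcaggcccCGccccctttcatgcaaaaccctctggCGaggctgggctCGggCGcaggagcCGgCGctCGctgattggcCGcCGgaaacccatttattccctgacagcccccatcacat
Isl1: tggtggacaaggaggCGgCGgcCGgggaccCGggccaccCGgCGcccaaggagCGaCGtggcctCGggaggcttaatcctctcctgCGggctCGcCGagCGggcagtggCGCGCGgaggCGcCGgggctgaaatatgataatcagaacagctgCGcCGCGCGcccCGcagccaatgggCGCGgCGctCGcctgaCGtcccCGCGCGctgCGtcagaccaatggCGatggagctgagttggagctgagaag
Rab3c: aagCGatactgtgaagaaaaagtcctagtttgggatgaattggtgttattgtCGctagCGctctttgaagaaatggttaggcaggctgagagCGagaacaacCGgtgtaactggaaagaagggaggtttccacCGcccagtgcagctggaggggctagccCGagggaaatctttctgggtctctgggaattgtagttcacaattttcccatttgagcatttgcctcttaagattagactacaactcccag
The windows of Atoh1, Sox2 and Isl1 held 14, 27 and 33 CG, and that of Rab3c held 7. Over 32851 promoter windows of the same length the median was 6. At least as many CG as in the Atoh1 window were found in 29.4% of windows, as in the Sox2 window in 8.6%, as in the Isl1 window in 4%, and as in the Rab3c window in 46.3%. The E-box CANNTG, the core sequence that basic helix-loop-helix factors such as ATOH1 are known to bind and which reads the same on both strands, occurred 0 times in the Atoh1 and Sox2 windows, 1 time in that of Isl1 and 3 times in that of Rab3c. At least 1 occurs in 66.2% of all windows. Among the other genes, windows were read for Tubb3 with 21 CG, Chga with 16, and Gfi1 with 13 and 9 at its alternative starts. Windows of Insm1, Pou4f3 and Piezo2 were not read, so the CG counts leave these genes out. These counts describe the sequence, and whether PRC2 or ATOH1 was bound there was not measured on these arrays.

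Atoh1 RNA gave log2 ratios of 1.01, 1.37, 1.13 and 1.14 in EED cKO replicates 1 to 4, and of 0.13, 0.42, 0.20 and 0.40 in control replicates 1 to 4. Every EED cKO array lay above every control array, with a gap wider than the spread within either genotype. The means were 1.16 ± 0.15 and 0.29 ± 0.14 (SD, n = 4 each), a log2 fold change of 0.87 (SE 0.075), or 1.83-fold, with a limma adjusted p = 0.00015. The exact two-sided permutation test of the 8 arrays gave p = 0.0286, the smallest that 4 against 4 arrays allow. The probe was well above background on 4 of 4 EED cKO arrays but on only 2 of 4 control arrays, those with the sample in Cy5. The reference RNA was well above background on 0 of 8 arrays, so that the ratio is taken against a reference at background level.

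Sox2, an HMG-box factor also known from hair follicle dermal papilla and from Schwann cells, gave 0.23, 0.70, 0.33 and 0.72 in EED cKO and -0.06, 0.15, 0.08 and 0.18 in control. The EED cKO arrays fell into a lower pair in Cy3 and a higher pair in Cy5, and the lowest of them lay just above the highest control array. The log2 ratios as measured differed by 0.405 (SE 0.079, limma adjusted p = 0.00764, exact permutation p = 0.0286). The probe was well above background on 4 of 4 EED cKO arrays and on 0 of 4 control arrays. The fold change therefore has only a lower bound, at least 1.24-fold, taken from the sample channel alone. For the bound, each control array was given the higher of its measured signal and the lowest signal that counted as well above background on it. The mean of the EED cKO arrays was set against the mean of these. Without the dye in the model the adjusted p of Sox2 was 0.0675. The reference RNA was well above background on 0 of 8 arrays for this probe too.

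Isl1, a LIM-homeodomain factor of sensory neurons and Merkel cells, gave 0.82, 0.96, 0.89 and 0.93 in EED cKO and -0.11, 0.22, -0.04 and 0.20 in control. The EED cKO arrays were tightly grouped, while the control arrays split by dye in the same way as for Atoh1. The log2 fold change was 0.83 (SE 0.070), or 1.78-fold, with a limma adjusted p = 0.000137 and an exact permutation p = 0.0286. Detection matched that of Atoh1, with 4 of 4 EED cKO arrays and the 2 Cy5 control arrays well above background.

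Gfi1 and Insm1 encode zinc-finger repressors, the former known from inner ear hair cells and blood cells, the latter from neuroendocrine cells. Gfi1 gave -2.15, -2.07, -2.18 and -1.94 in EED cKO and -2.56, -2.81, -2.77 and -2.77 in control, and was well above background in the sample and in the reference on all 8 arrays. Its control arrays sat close together, and all lay below the EED cKO arrays. The log2 fold change of Gfi1 was 0.64 (SE 0.086), or 1.56-fold (limma adjusted p = 0.00156, exact permutation p = 0.0286). Insm1 gave 1.15, 1.28, 1.31 and 1.25 in EED cKO and 0.28, 0.73, 0.57 and 0.62 in control. In the sample Insm1 was well above background on all 8 arrays, and its genotypes did not overlap. In the reference it was so on only 3 of 8 arrays, all of them EED cKO, so its control ratios are taken against a reference near background. The log2 fold change of Insm1 was 0.70 (SE 0.090), or 1.62-fold (limma adjusted p = 0.00133, exact permutation p = 0.0286).

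Pou4f3, a POU-homeodomain factor that ATOH1 is known to activate in hair cells, did not pass. It gave 0.15, 0.24, 0.26 and 0.15 in EED cKO and 0.12, 0.18, 0.13 and 0.04 in control. The genotypes overlapped, and all 8 values were close to 0. The probe was well above background on 3 of 4 EED cKO arrays and 0 of 4 control arrays. The log2 fold change of the measured values was 0.08 (SE 0.068, limma adjusted p = 0.414, exact permutation p = 0.114). A difference in Pou4f3 was not detectable at this signal.

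Piezo2, the channel that opens on mechanical force in Merkel cells and touch neurons, was represented by 3 probes, none of which passed the filter. The brightest gave -0.57, -0.12, -0.30 and 0.03 in EED cKO and -0.21, 0.03, -0.39 and 0.08 in control. These values followed the dye and not the genotype, with the Cy5 arrays of both genotypes the highest. Only those Cy5 arrays were well above background, 2 of 4 in each genotype, whereas the reference RNA was so on all 8 arrays. For the other two probes the epidermal RNA was above that limit on 0 of 8 arrays. The exact permutation test of the brightest probe gave p = 0.514, and a fit without the filter gave a log2 fold change of -0.12 (SE 0.076, limma adjusted p = 0.411). Piezo2 RNA in epidermis was therefore at the limit of detection, and no difference was detectable.

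Rab3c, a small GTPase of synaptic vesicles, was well above background on all 8 arrays with 2 of its 3 probes. The brighter of them gave -1.69, -1.39, -1.37 and -1.34 in EED cKO and -1.57, -1.38, -1.64 and -1.34 in control. The genotypes overlapped, with EED cKO replicate 1 the lowest of the 8 arrays, control replicates 3 and 1 next, and the other 5 close together. The log2 fold change was 0.04 (SE 0.082, limma adjusted p = 0.793, exact permutation p = 0.886), and the other well-measured probe gave 0.03. The third probe of Rab3c was well above background on 2 of 4 EED cKO arrays and 0 of 4 control arrays and did not pass the filter.

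Tubb3, the beta-tubulin isotype of neurons, had the largest fitted change of the 9 tested genes on the main scale, whereas with a smaller background offset (10 in place of 50) or on the scanner software's own log ratio Atoh1 and Isl1 exceeded it. It gave 0.80, 2.06, 0.85 and 1.30 in EED cKO and 0.22, 0.25, 0.17 and -0.23 in control. The genotypes did not overlap, but replicate 2 stood far above the other EED cKO arrays and control replicate 4 below the other control arrays. The means were 1.25 ± 0.59 and 0.10 ± 0.22 (SD, n = 4 each), a log2 fold change of 1.15 (SE 0.231), or 2.22-fold (limma adjusted p = 0.00862, exact permutation p = 0.0286). Without EED cKO replicate 2 the log2 fold change was 0.89 and without control replicate 4 it was 0.95, both below 2-fold and both still past the adjusted p (0.00848 and 0.0166).

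Chga encodes chromogranin A, a core protein of dense-core granules. It gave 3.05, 3.75, 3.34 and 3.77 in EED cKO and 1.83, 3.40, 3.08 and 2.51 in control. The genotypes overlapped, since control replicates 2 and 3 lay within the range of EED cKO while control replicates 1 and 4 lay below it. The means were 3.48 ± 0.35 and 2.70 ± 0.69 (SD, n = 4 each), a log2 fold change of 0.77 (SE 0.259), or 1.71-fold, which did not pass (limma adjusted p = 0.0601, exact permutation p = 0.143). With the replicate number as a block the adjusted p was 0.0176. The same 2 control arrays were also set apart by the Y-linked genes Ddx3y, Uty and Eif2s3y. With Kdm5d, which was well above background on 0 of 4 control arrays, these 4 genes averaged a log2 ratio of 1.19 and 1.02 on control replicates 2 and 3 and of -1.51 to -1.31 on the other 6 arrays. The labels do not give the sex of the pups. Xist went the other way, at -2.49 and -1.85 on control replicates 2 and 3, where it was not well above background. On the other 6 arrays it was, at -1.07 to -0.46. The arrays high in Y-linked RNA were thus all control, so this trait was not balanced between genotypes for any gene reported here. With that mean as a covariate, the log2 fold change of Chga was 1.26 (limma adjusted p = 0.000464), and without control replicate 3 alone it was 1.03 (adjusted p = 0.0104). Without control replicate 2 alone it was 0.94 and did not pass (adjusted p = 0.0516). Without control replicate 1 it was 0.53 (adjusted p = 0.117) and without control replicate 4 it was 0.59 (adjusted p = 0.142). Chga also passed without background correction (adjusted p = 0.0422) and with an offset of 10 in place of 50 (adjusted p = 0.0433). Sex and other traits of control replicates 2 and 3 cannot be told apart here.

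**Figure D2:**
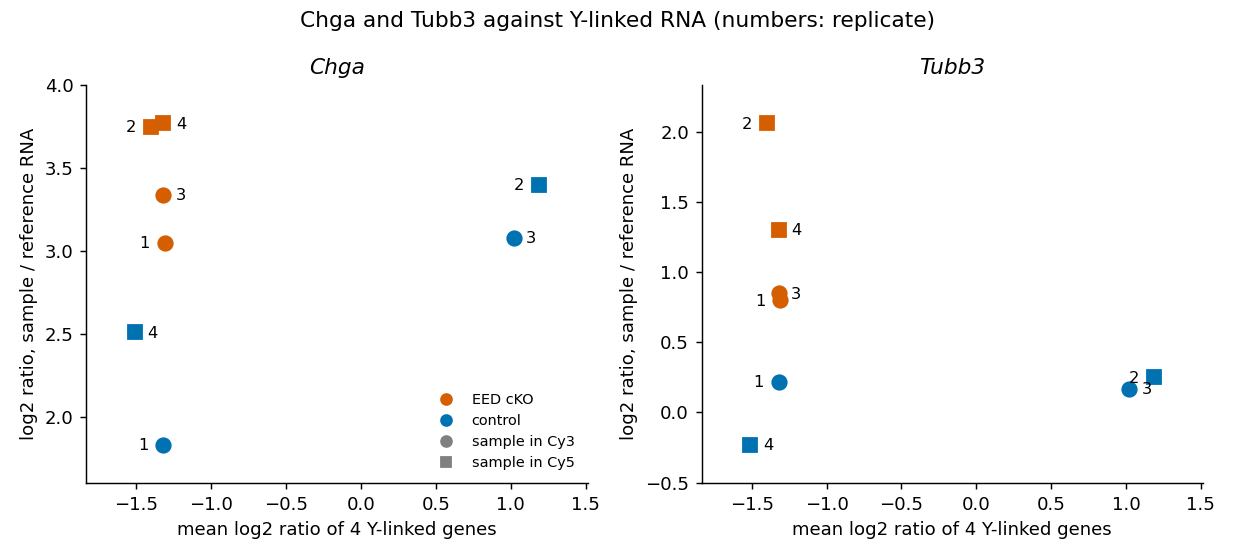
Log2 ratio of sample over reference RNA of Chga (left) and Tubb3 (right) against the mean log2 ratio of 4 Y-linked genes on each of the 8 arrays, with EED cKO in orange, control in blue, circles for the sample in Cy3, squares for Cy5, and the replicate number beside each point. Control replicates 2 and 3, at 1.19 and 1.02 on the horizontal axis, have the highest Chga values among controls, 3.40 and 3.08, whereas their Tubb3 values of 0.25 and 0.17 stay below all EED cKO arrays.

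The size of the change depended on the treatment of background, most of all for the dim factors. The main scale adds an offset of 50 to each corrected signal, which draws ratios of dim spots toward 0. With an offset of 10 the log2 fold change was 1.64 for Atoh1, 1.59 for Isl1, 0.98 for Sox2 and 1.06 for Insm1. On the log ratio that the scanner software computed, with no offset, it was 3.04 for Atoh1, 2.95 for Isl1, 3.26 for Sox2 and 1.09 for Insm1. For Atoh1, Isl1 and Sox2 those values rest on control signals that were not well above background on 2, 2 and 4 of the 4 arrays, and the Sox2 ratio was set to 0 by the software on control replicates 1 and 3. Gfi1, which was bright in both channels, moved little, from 0.64 to 0.81 on that scale.

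The processed signals of the sample channel show the same arrays without a reference. For Atoh1 they were 186, 245, 149 and 197 units in EED cKO and 19.7, 64.1, 20.4 and 38.5 in control. For Sox2 they were 39.5, 84.5, 44.1 and 88.7 against 5.09, 6.72, 4.77 and 11.4, and for Isl1 188, 196, 183 and 176 against 15.4, 36.6, 16.1 and 37.2. In these processed signals the lowest EED cKO array was above the highest control array for all 3 factors, but no Sox2 control signal was well above background. For the median spot signal less its background, Sox2 overlapped, with EED cKO replicate 1 at 17 and control replicate 3 at 18. The sample channel alone, after background correction and normalization, gave a log2 fold change of 0.75 for Atoh1 (SE 0.079, limma adjusted p = 0.000696) and of 0.75 for Isl1 (SE 0.066, adjusted p = 0.000274). With the 2-fold limit, the scanner log ratio called 5 of the 9 genes higher (Atoh1, Sox2, Isl1, Insm1 and Tubb3), where 2.56% of tested targets were, and an offset of 10 called 4, where 1.97% were. Centring each array on its median in place of loess called 0 at 2-fold, where 0.674% of targets were, and kept 6 at the adjusted p alone, where 4.38% were.

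**Figure D3:**
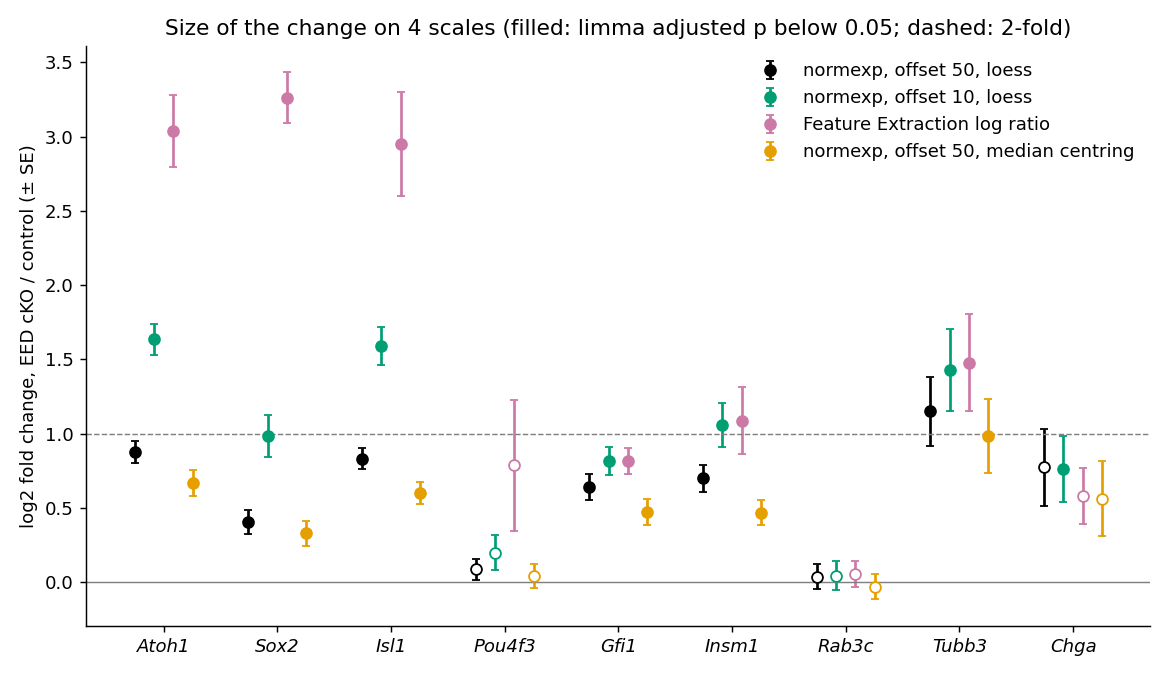
Log2 fold change of EED cKO over control (vertical axis) with its SE for the 9 tested genes under 4 treatments of the same arrays, namely normexp with offset 50 and loess (black), offset 10 (green), the scanner software's log ratio (pink), and offset 50 with median centring (orange). Filled symbols passed a limma adjusted p below 0.05 and the dashed line marks 2-fold. Atoh1, Sox2 and Isl1 spread from 0.67, 0.33 and 0.60 up to 3.04, 3.26 and 2.95, while Rab3c stays near 0 on all 4.

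Merkel cells are recognized in epidermis by the simple keratins Krt8, Krt18 and Krt20, which were measured as a check of the cell type. All 3 were well above background on all 8 arrays and higher in EED cKO. Krt20, the most restricted of them to Merkel cells, was at -0.93 ± 0.18 in EED cKO and at -2.05 ± 0.04 in control (mean ± SD, n = 4 each), a log2 fold change of 1.12 (SE 0.082, limma adjusted p = 6.87e-05). Krt8 had a log2 fold change of 0.65 (SE 0.072, adjusted p = 0.000668) and Krt18 of 0.47 (SE 0.078, adjusted p = 0.00377), and neither overlapped between genotypes. Krt18 no longer passed with median centring (adjusted p = 0.0685) or with the methods' t-test after adjustment (0.0756).

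Genes of the same functions beyond the 10 were read from lists of related genes. Over 5 such lists 29 of 92 tested genes passed a limma adjusted p below 0.05, with 25 higher and 4 lower, beside 11.8% of all tested targets called higher and 9.93% called lower. The share differed between lists, and their medians were closer to that of all tested targets, 0.02, than to that of the 9 genes above. Many listed genes, as with Piezo2, were not bright enough to be tested. Of those called higher, Isl2, Lmx1a, Syt1, Cplx1, Tac1, Kcna1, Stmn3 and Uchl1 entered the test only because their probes were well above background in EED cKO. The counts and medians therefore describe the genes that could be tested and are no measure of the whole lists.

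Of 30 other neurosensory transcription factors, 16 were tested, 4 were higher and 1 was lower, with a median log2 fold change of 0.08. The LIM-homeodomain genes Isl2 and Lmx1a were well above background on 4 of 4 EED cKO arrays and 0 of 4 control arrays. In the sample channel alone they were at least 1.73-fold and at least 1.64-fold higher (adjusted p = 0.00164 and 0.0012 for the log2 ratios over reference). For both, these bounds equal the ratio of the measured sample signals, because the mean control signal was not raised by the limit used for Sox2. Lhx3, also a LIM-homeodomain gene, had a log2 fold change of 0.72 (SE 0.138, adjusted p = 0.00681), with overlapping genotypes. Rest, a repressor of neuronal genes outside the nervous system, was the one that fell, by 0.38 on the log2 scale (SE 0.099, adjusted p = 0.0248).

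Of 34 synaptic vesicle and exocytosis genes, 24 were tested, 8 were higher and 3 were lower, with a median of 0.02. Syt13, a synaptotagmin, rose from between -3.55 and -3.02 in control to between -1.70 and -1.47 in EED cKO, a log2 fold change of 1.74 (SE 0.100, adjusted p = 1.54e-05). Rab3b, a paralog of Rab3c, rose from between 0.15 and 0.61 to between 1.92 and 2.22, a log2 fold change of 1.71 (SE 0.071, adjusted p = 1.64e-06). Rab3c, by comparison, was at 0.04, and the difference between the paralogs was not tested. The next were Syn2, a synapsin, at 0.60 and the vesicle calcium sensor Syt1 at 0.44. Syt1 was well above background on 4 of 4 EED cKO arrays and 1 of 4 control arrays. The 3 that were lower, named after their values were seen, were Doc2b at -0.43, Rab3d at -0.37 and Vamp2 at -0.34.

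Of 25 secretory granule and peptide genes, 17 were tested, 4 were higher and 0 were lower, with a median of 0.19. Cck, which encodes the peptide cholecystokinin, had a log2 fold change of 1.64 (SE 0.229, adjusted p = 0.00181), from between 0.29 and 1.55 in control to between 2.31 and 2.96 in EED cKO. Chgb, the chromogranin paralog of Chga, had a log2 fold change of 0.51 (SE 0.112, adjusted p = 0.0126), and Scg5 of 0.33 (SE 0.065, adjusted p = 0.00727). Tac1, the substance P precursor gene, was well above background on 3 of 4 EED cKO arrays and on none of the 4 control arrays. Its rise in the sample channel alone was no less than 1.19-fold (adjusted p = 0.0109 for the log2 ratio over reference).

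Of 31 mechanosensory and excitability genes, 17 were tested, 2 were higher and 0 were lower, with a median of 0.11. Their share of 11.8% was equal to the share of all tested targets called higher. The 2 were the potassium channel gene Kcna1 at 0.52 (SE 0.084, adjusted p = 0.00329) and the calcium channel gene Cacna1h at 0.38 (SE 0.088, adjusted p = 0.0149). Kcna1 was well above background on 4 of 4 EED cKO arrays and 2 of 4 control arrays. Piezo1, the paralog of Piezo2 and named after its value was seen, was well above background on all 8 arrays and had a log2 fold change of 0.12 (SE 0.104, adjusted p = 0.438).

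Of 24 neuronal cytoskeleton genes, 18 were tested, 7 were higher and 0 were lower, with a median of 0.30. Other beta-tubulin genes were among them, Tubb2b at 0.76 (SE 0.095, adjusted p = 0.00116) and Tubb2a at 0.70 (SE 0.220, adjusted p = 0.0488). Uchl1, a neuronal ubiquitin hydrolase also used to stain Merkel cells, was at 0.71 (SE 0.093, adjusted p = 0.00142), with 4 of 4 EED cKO and 1 of 4 control arrays well above background. Stmn3, a tubulin-binding stathmin, was at 0.51 (SE 0.073, adjusted p = 0.002), with 4 of 4 EED cKO and 2 of 4 control arrays well above background.

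**Figure D4:**
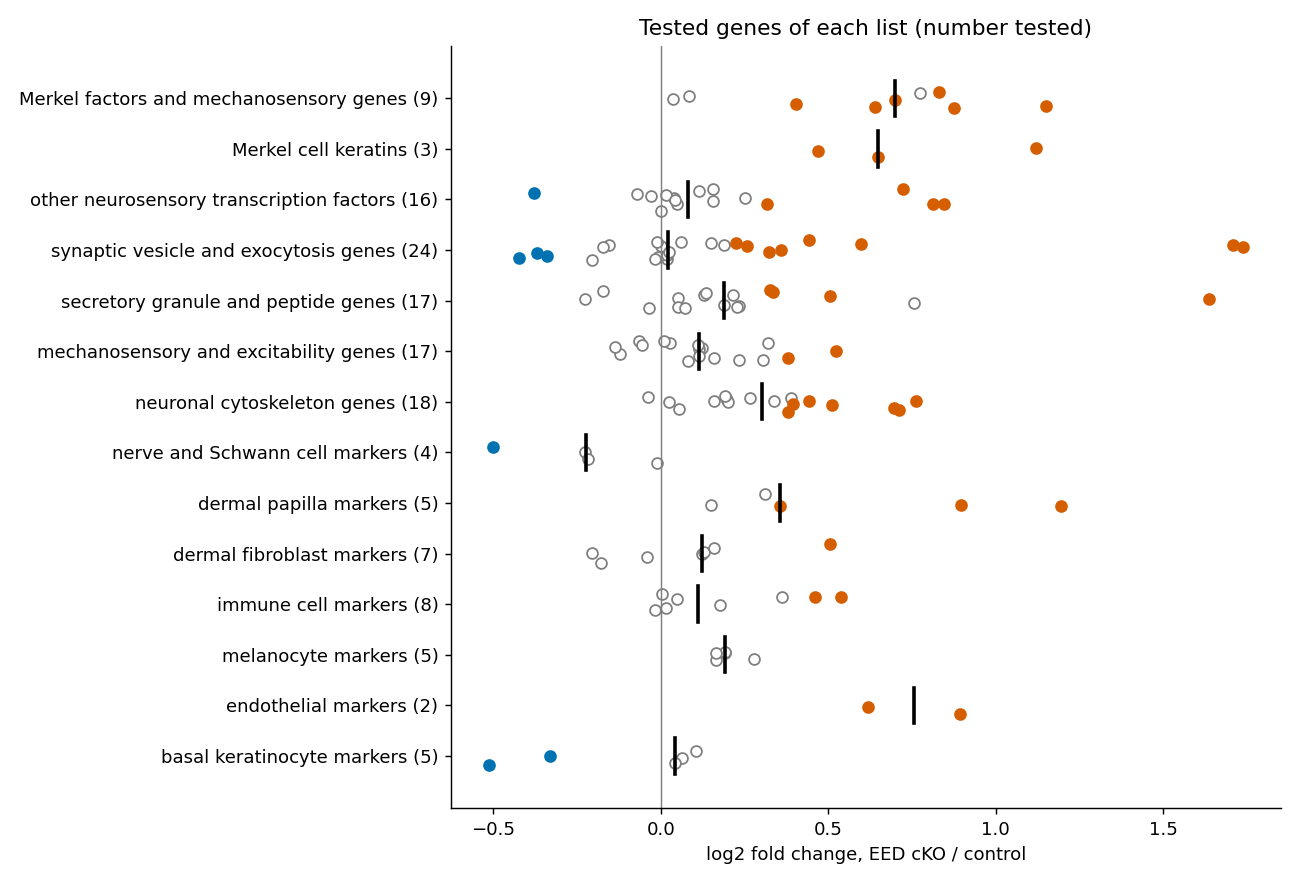
Log2 fold change of EED cKO over control (horizontal axis) of each tested gene in the lists named on the vertical axis, with the number tested in parentheses. Filled points passed a limma adjusted p below 0.05, orange when higher and blue when lower in EED cKO, and black bars are medians. The 9 Merkel factors and mechanosensory genes and the 3 keratins have medians of 0.70 and 0.65, above those of the 5 lists of related genes, which run from 0.02 to 0.30. Among the marker lists, the median of the 2 tested endothelial genes is higher still, at 0.757, and that of dermal papilla markers is 0.355.

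Several of the 10 genes are also expressed by other cells that an epidermal preparation can carry, and markers of those cells were read beside them. Of 11 nerve and Schwann cell markers, 4 were tested and 0 were higher, and Sox10, the Schwann cell factor, was lower at -0.50 (SE 0.158, adjusted p = 0.0489). Their summed sample signal was 3160 to 4530 units in EED cKO and 3860 to 4880 in control, and 4 of the 11 were well above background on 0 of 8 arrays. Sox2, Isl1 and Tubb3 are expressed by Schwann cells or sensory neurons, and the part of those cells in their values was not tested.

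Dermal papilla markers, which bear on Sox2, moved in part. Of 8, 5 were tested and 3 were higher, namely Trps1 at 1.19 (adjusted p = 0.000118), Wif1 at 0.90 (adjusted p = 0.0135) and Crabp1 at 0.35 (adjusted p = 0.0228). Their summed sample signal was 1260 to 1370 in EED cKO and 848 to 1050 in control. Inhba at 0.31 (adjusted p = 0.0715) and Rspo3 at 0.15 (adjusted p = 0.296) did not pass. The defining marker Corin was well above background on 0 of 8 arrays, and Itga8 and Sox18 on 2 of 4 in each genotype. Itga8 averaged 0.202 in EED cKO and 0.318 in control, and Sox18 averaged 0.34 and 0.295. The part of dermal papilla cells in the Sox2 value was not tested.

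Immune markers bear on Gfi1, which is also a gene of blood cells. Of 9, 8 were tested and 2 were higher, Cd3e at 0.54 (adjusted p = 0.00349) and Cd74 at 0.46 (adjusted p = 0.0439), beside 11.8% of all tested targets called higher. The others tested did not pass and ran from -0.02 for Itgam to 0.36 for H2-Aa, with Cd3g at 0.05 and Ptprc at 0.003. The summed signal of the immune markers was 4130 to 4830 in EED cKO and 3580 to 3960 in control. The part of immune cells in the Gfi1 value was not tested. Of 4 endothelial markers both that were tested were higher, Pecam1 at 0.89 (adjusted p = 0.00385) and Kdr at 0.62 (adjusted p = 0.00215), while Cdh5 and Tek were well above background on 0 of 8 arrays. The endothelial sum was 4530 to 5990 against 2660 to 4100. Of 7 dermal fibroblast markers only Lum passed, at 0.50 (adjusted p = 0.0121), and their sum was 27500 to 29000 against 26900 to 37700. The 5 melanocyte markers gave 0 calls, with a sum of 22900 to 28500 against 19800 to 29100.

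Basal keratinocyte markers, which define the labelled tissue, were all 5 tested and well above background on all 8 arrays, with a summed signal of 162000 to 193000 units in EED cKO and 176000 to 218000 in control. Of these, Itgb4 was lower at -0.51 (adjusted p = 0.0218) and Col17a1 at -0.33 (adjusted p = 0.0483), the latter turning to 0.23 on the scanner log ratio.

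Genes whose log2 ratios over the 8 arrays followed those of Atoh1 most closely were DXBay18 (Pearson r = 0.995), Adig (0.992), Cyp11a1 (0.992), Ceacam10 (0.99) and Camk2b (0.99), and Isl1 came sixth. All 8 arrays of both genotypes enter this measure, so the step between genotypes is part of it. Like Atoh1, these 5 were higher in EED cKO, with log2 fold changes from 0.74 for Ceacam10 to 1.37 for Adig.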

How the data were processed

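Each of 8 two-color arrays compared epidermal RNA (EED cKO on 4, control on 4) with a common reference, and dyes were balanced within each genotype. The authors extracted the arrays with Agilent Feature Extraction 12.0.1.1 and deposited, per array, the intensity of each spot and its background in both channels, background flags and log10 of the ratio between Cy5 and Cy3, as well as a series table that the authors deposited as log2 ratios of sample over reference.

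From these, the median spot intensity was corrected with normexp (offset 50), control and outlier spots were left out, and each array was normalized by loess, using limma 3.58.1 in R 4.3.3. Ratios were turned to sample over reference and spots of a probe averaged. Probes were named by RefSeq accession (28026 of 29796 such probes matched), and the brightest probe stood for a gene. A target was tested if the epidermal RNA gave a signal well above background on 3 or more arrays of either genotype, and 19 missing values among tested targets were left missing. The lmFit and eBayes model held genotype and dye, and p-values were adjusted by Benjamini-Hochberg over 23139 targets. Single genes were also compared by an exact permutation test. The fit was tested on simulated data: of 200 genes made 3-fold different among 23139 between EED cKO and control, 200 were recovered in both simulations, with 0 others called. All 9 tested genes changed by less than 3-fold on the main scale, at most 2.22-fold, and recovery of such smaller changes was not simulated. Precision is limited by the number of arrays.

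The 10 genes, the lists and the rule for named genes were chosen with earlier results of these data known. The rule takes the 10 genes, Eed and the Merkel keratins, up to 4 called genes with the largest change per related list, up to 3 per marker list, and the 5 genes most correlated with Atoh1. Same-numbered samples of the 2 genotypes deviated alike from their group means (r = 0.49, 0.68, 0.33 and 0.36 across genes), and the number also marks the slide column and fixes the dye. Alternatives tried were background correction, the scanner log ratio, the deposited table, normalization, filters, probe choice, covariates, an intensity trend, array weights, the replicate block, leaving out each array, and the methods' t-test.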

Additional observations from a re-analysis of the deposited data

Results flagged for a closer look

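Over the 18 groups of 4 arrays looked at for the 9 tested genes, 2 held an array far from the other three, where chance alone gives about 1 in 20. For Rab3c, EED cKO replicate 1 was at -1.69 and the other EED cKO arrays at -1.39 to -1.34, a gap of 0.858 of the whole range. For Tubb3, control replicate 4 was at -0.23 and the other control arrays at 0.17 to 0.25, a gap of 0.848 of the range.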

How the results depend on the processing

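Atoh1, Isl1, Gfi1, Insm1, Krt8 and Krt20 kept their direction and their call under all 26 alternatives, of which the methods' t-test without adjustment was read at its own p and Aquantile leaves log ratios as they are, with log2 fold changes of 0.67 to 3.04 for Atoh1. The number of the 9 tested genes with an adjusted p below 0.05 was 6, and ran from 4 (methods' t-test with Benjamini-Hochberg adjustment, which lost Sox2 and Tubb3) to 7, and from 6 to 7 with each array left out. With the 2-fold limit it was 1, and became 3 without background correction, 4 with offset 10, 5 with the scanner log ratio or the deposited table, 2 with the Y-linked covariate, 0 with median centring or the methods' t-test after adjustment (1 without adjustment), and 0 to 2 with each array left out (0 without EED cKO replicate 2 or control replicate 4, 2 without control replicate 3). The count over related genes, 29, became 17 with median centring, 16 without the dye term, 10 with the methods' t-test after adjustment, and 21 to 31 with each array left out. With the replicate block the counts were 7 (Chga added), 1 and 35, and the block changed no other call among the 10 genes. Rab3c turned to -0.033 with median centring and ran from -0.035 (without EED cKO replicate 3) to 0.092 with each array left out. The causes of these shifts were not tested. The sample signal of Piezo2 and Pou4f3 over background limits what can be said of them, and that of Atoh1, Sox2 and Isl1 in control limits how large their changes can be said to be.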
